A study of Mus musculus with 8 samples.

Results

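The peaks described here lie at 9 genes through which macrophages sense and handle cholesterol and fatty acids: Abca1, Abcg1, Nr1h3, Nr1h2, Srebf1, Srebf2, Scd1, Scd2 and Mylip. A peak was taken as a member when the deposited table assigned it to one of these genes and placed it within 100 kb of the transcription start site (TSS). Of 24867 peaks in the table of NCoR1 flox/flox libraries, 22 met the rule and covered all 9 genes. Of 9698 peaks in the table of wild-type (WT) libraries, 8 met it and covered 5 genes: 4 at Abca1 and 1 each at Abcg1, Mylip, Scd2 and Srebf2. The rule used gene names and distances and no level.

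All 8 libraries were ATAC-seq (assay for transposase-accessible chromatin), in which the Tn5 transposase inserts adapters into open DNA, so that the number of sequenced tags in a region measures its accessibility. The cells were bone marrow-derived macrophages (BMDMs) of C57BL/6 mice aged 8 to 12 weeks, differentiated with M-CSF and serum-starved for 12 h before the ligands. The 4 groups of 2 libraries were WT cells with vehicle for 6 h (Veh), WT cells with Kdo2 lipid A at 100 ng/mL for 6 h (KLA), WT cells with KLA for 6 h that also received RGFP966 from the start of serum starvation, and NCoR1 flox/flox cells with vehicle for 6 h (NCoR f/f in the plots). KLA, the lipid anchor of endotoxin, activates the receptor TLR4, and RGFP966 is an inhibitor of the histone deacetylase HDAC3. For the RGFP966 pair the titles name the inhibitor, whereas the treatment label names KLA alone. The flox/flox cells carry loxP sites in both alleles of Ncor1, which encodes the corepressor NCoR, and their Cre-carrying counterparts were not analysed here. The sources do not say whether the 2 libraries of a group came from separate mice or cultures, so any spread between them may be technical. The main test (edgeR) fitted a dispersion of 9.77e-05 to the WT peaks, close to counting error alone. Its p-values for the peaks therefore rest almost only on counting error and hardly measure the spread between libraries.

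The liver X receptors (LXRs) are nuclear receptors that are activated by oxysterols and bind DNA with a retinoid X receptor. Without ligand they hold corepressors such as NCoR with HDAC3 at their target genes. Sterol regulatory element-binding proteins (SREBPs) are membrane-bound transcription factors that are released by proteolysis when sterols are low and turn on lipid synthesis. In macrophages the LXRs drive cholesterol efflux and the transcription of Srebf1, and both families converge on the stearoyl-CoA desaturases.

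The DNA under the peaks is shown first, because several of the member peaks shared one short element. In one common form of the LXR response element, a GGTTA and a GGTCA part are separated by 5 bases. An exact match on either strand was found in 5 of the 22 NCoR1 flox/flox member peaks, against 17 of all 24620 peaks of that table whose DNA could be read (0.0690%). In the WT table it was found in 2 of the 8 member peaks, against 5 of 9527 (0.0525%). This form of the element was looked for after the DNA of these peaks had been read, and several of these loci are textbook LXR targets, so the members' counts are a description and no test. With up to 1 mismatch over the 10 fixed bases the counts were 8 of 22 (285 of all peaks, 1.16%) and 2 of 8 (103 of all peaks, 1.08%). The matches are given below from the mm10 (GRCm38) reference, 5′ to 3′ on the strand that carries the element, with the fixed bases that match in capitals.

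Abca1 promoter peak at -140 bp, chr4:53159948-53159962: GGTTActaccGGTCA
Abca1 intron 1 peak at +1068 bp (WT table) and +1107 bp (NCoR1 flox/flox table), chr4:53158873-53158887: GGTTActtgcGGTCA
Abca1 intron 5 peak at +43861 bp, chr4:53115991-53116005: GGTTActctcGGTCA
Scd2 upstream peak at -9415 bp (WT table) and -9418 bp (NCoR1 flox/flox table), chr19:44284245-44284259: GGTTActctcGGTCA
The same Scd2 peak, 1 mismatch, chr19:44284274-44284288: GGTTActcgcGtTCA
Scd1 peak beyond the 3′ end of the gene at +19071 bp, chr19:44388683-44388697: GGTTAttctcGGTCA
Abcg1 upstream peak at -17902 bp, 1 mismatch, chr17:31039744-31039758: GGTTActtcaGGgCA
Abcg1 intron 2 peak at +9314 bp, 1 mismatch, chr17:31067183-31067197: GGTTActacaGGgCA
Mylip intron 2 peak at +1990 bp, 1 mismatch, chr13:45391695-45391709: tGTTActacaGGTCA

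The 3 exact matches at Abca1 thus lay in its promoter, intron 1 and intron 5, and the Scd2 peak held a pair of elements on one strand. Of the WT peaks, the intron 1 peak of Abca1 and the upstream peak of Scd2 were the 2 with an exact match. RefSeq promoters (250 bases before to 50 after a start, GRCm38) were at hand for 6 of the 9 genes, as 9 entries. They held the exact element in 2 of the 9 entries, against 16 of 32851 (0.0487%). One was the Abca1 promoter, at -67 to -53 from the start, which is the promoter site listed above. The other was an entry of Srebf1, the LXR target that encodes SREBP-1, at -182 to -168.

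The next 4 stretches carry the WT results described further on and are printed on the strand of their gene, with capitals for exact and 1-mismatch LXR elements and for the CCAAT box (NF-Y box) on either strand. The Abca1 intron 1 peak is shown whole because its level was lowest in Veh, and the Scd2 upstream peak because of its pair of elements. The centre of the Mylip promoter peak is shown because it was the one member peak called in a test, and the centre of an Abca1 intron 5 peak because its level was highest in a KLA library.

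Abca1 +1068 bp, chr4:53158708-53158947, minus strand: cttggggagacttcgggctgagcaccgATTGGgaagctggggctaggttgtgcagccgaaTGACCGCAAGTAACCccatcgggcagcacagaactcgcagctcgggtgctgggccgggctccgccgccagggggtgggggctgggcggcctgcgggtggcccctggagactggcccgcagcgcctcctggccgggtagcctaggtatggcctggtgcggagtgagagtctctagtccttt
Scd2 -9415 bp, chr19:44284115-44284407, plus strand: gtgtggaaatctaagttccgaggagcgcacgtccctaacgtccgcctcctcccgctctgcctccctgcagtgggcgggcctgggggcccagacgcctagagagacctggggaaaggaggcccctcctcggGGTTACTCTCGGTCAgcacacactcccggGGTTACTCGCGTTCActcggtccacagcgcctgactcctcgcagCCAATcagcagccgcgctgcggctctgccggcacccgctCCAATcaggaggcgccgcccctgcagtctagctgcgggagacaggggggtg
Mylip -163 bp, chr13:45389419-45389718, plus strand: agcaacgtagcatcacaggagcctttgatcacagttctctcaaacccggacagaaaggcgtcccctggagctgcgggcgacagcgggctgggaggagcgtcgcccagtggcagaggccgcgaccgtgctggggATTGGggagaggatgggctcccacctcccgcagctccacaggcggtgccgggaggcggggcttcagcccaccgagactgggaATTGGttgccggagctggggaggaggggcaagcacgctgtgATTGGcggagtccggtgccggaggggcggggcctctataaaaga
Abca1 +37860 bp, chr4:53121886-53122185, minus strand: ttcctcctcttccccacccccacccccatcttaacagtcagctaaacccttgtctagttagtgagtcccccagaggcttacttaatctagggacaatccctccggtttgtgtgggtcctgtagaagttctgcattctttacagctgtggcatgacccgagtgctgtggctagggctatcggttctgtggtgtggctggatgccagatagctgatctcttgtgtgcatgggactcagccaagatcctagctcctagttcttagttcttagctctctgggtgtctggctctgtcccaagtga

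The Mylip promoter stretch held 3 CCAAT boxes, all on the opposite strand, and no LXR element. The Abca1 +37860 stretch held neither. CCAAT lay in the central 200 bases of 4 of the 8 WT member peaks, against 33.3% of all WT peaks, and of 10 of the 22 NCoR1 flox/flox member peaks, against 25.9%. An exact sterol regulatory element (TCACNCCAC) was found in none of the 8 or 22 central windows, against 0.861% and 0.934% of all peaks. With 1 mismatch over its 8 fixed bases it matched 3 of 8 and 4 of 22 windows, against 19.1% and 19.2% of all peaks, and 1 of these lay in the Srebf2 promoter at chr15:82147107-82147115. The AP-1 word TGANTCA lay in 2 of the 8 WT windows, the Abca1 +39362 bp and the Abcg1 -19080 bp peaks, against 18.2% of all WT peaks. A second LXR search, for a direct repeat of AGGTCA with a 4-base spacer and up to 2 mismatches over its 12 fixed bases, matched 0 of 8 and 1 of 22 windows, the latter being the Abcg1 -17902 bp element listed above, against 2.02% and 1.88% of all peaks. A match is a run of letters, and a missing match concerns these letters in this window only.

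The libraries were shallow in peaks. Total tags in peaks were 116733 to 202523 in the WT libraries and 372367 to 509741 in the NCoR1 flox/flox libraries. The median peak held 10 to 17 tags in a WT library, so a single tag moved a member's value visibly. Together the member peaks took 0.0617% to 0.0882% of the WT tags in peaks. All levels below are tags per 100000 tags in peaks, given as the mean ± SD of 2 libraries. The intervals given with ratios are exact 95% intervals for pooled tags and cover counting error only. Cell identity was checked with marker genes that had a peak within 2 kb of the TSS. Macrophage markers had one in 6 of 10 cases in the NCoR1 flox/flox table (among them Spi1, Cd68, Itgam, Fcgr1 and Cebpb) and in 3 of 10 in the WT table (among them Cd68 and Cebpb). The macrophage markers Csf1r, Adgre1, Lyz2 and Mpeg1 had no such peak in either table, and Spi1, Itgam and Fcgr1 had none in the WT table. The 4 markers each of T cells, B cells, neutrophils and fibroblasts had none in either table. In a bulk library, fewer accessible cells and less accessibility per cell cannot be told apart.

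**Figure D1:**
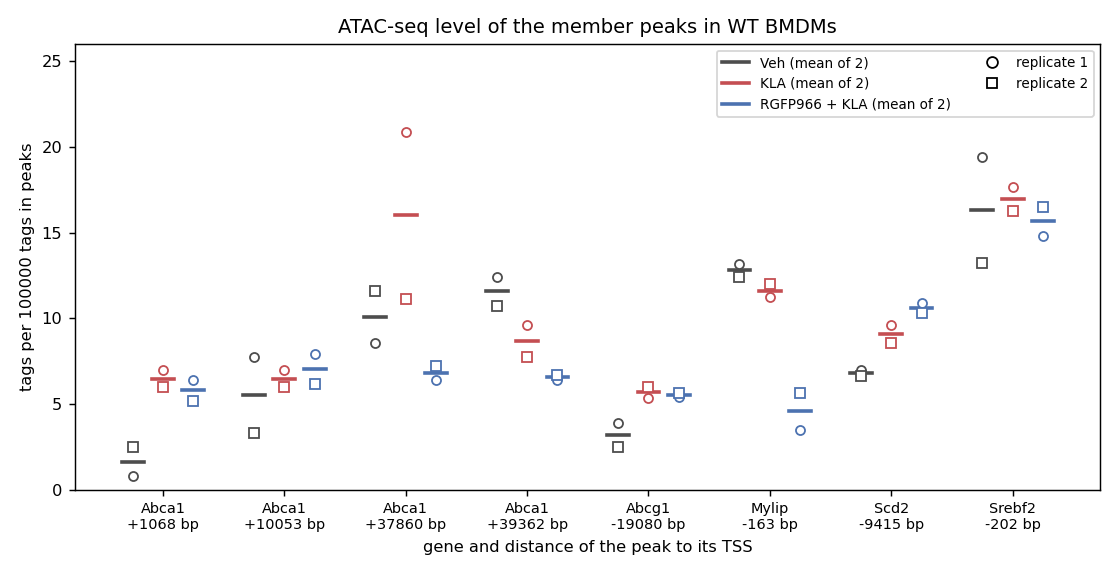
Levels of the 8 member peaks in the 6 WT libraries, as tags per 100000 tags in peaks (y axis), by gene and distance of the peak to the TSS (x axis). Circles are replicate 1, squares replicate 2 and bars the mean of 2. The Abca1 peak at +1068 bp was below both stimulated groups in Veh, and the Mylip peak was lowest in the 2 RGFP966 + KLA libraries.

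Abca1, which pumps cholesterol and phospholipid out of the cell onto apolipoprotein A-I, had the most WT member peaks. Its intron 1 peak at +1068 bp (chr4:53158708-53158947), the one with the exact LXR element, held 1 and 3 tags in Veh replicates 1 and 2, then 13 and 7 in KLA and 13 and 10 in RGFP966 + KLA. Both Veh libraries lay below all 4 stimulated libraries. The levels were 1.63 ± 1.20 in Veh, 6.47 ± 0.675 in KLA and 5.78 ± 0.898 in RGFP966 + KLA. This peak entered the table only through the peak set called from the RGFP966 + KLA libraries, so its listing and its low Veh level are not independent.

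The peak at +10053 bp in the same intron (chr4:53149704-53149981), listed through the same set alone, held 10 and 4 tags in Veh, 13 and 7 in KLA and 16 and 12 in RGFP966 + KLA. Its groups overlapped throughout, at 5.53 ± 3.15, 6.47 ± 0.675 and 7.04 ± 1.22. In intron 5, the peak at +37860 bp (chr4:53121864-53122207) held 11 and 14 tags in Veh, 39 and 13 in KLA and 13 and 14 in RGFP966 + KLA. The single value of 39 tags, in KLA replicate 1, stood apart, and the level of KLA was 15.995 ± 6.87 against 10.0 ± 2.14 in Veh and 6.81 ± 0.558 in RGFP966 + KLA. Its neighbour at +39362 bp (chr4:53120377-53120690) held 16 and 13 tags in Veh, 18 and 9 in KLA and 13 and 13 in RGFP966 + KLA. As levels these were 11.6 ± 1.18, 8.67 ± 1.35 and 6.56 ± 0.194, with no overlap between any pair of groups.

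Abcg1 exports cholesterol to high-density lipoprotein. Its only WT member peak, upstream at -19080 bp (chr17:31038512-31038716, intergenic), held 5 and 3 tags in Veh, 10 and 7 in KLA and 11 and 11 in RGFP966 + KLA. The levels were 3.18 ± 0.990, 5.67 ± 0.459 and 5.55 ± 0.164, so that Veh lay below both stimulated groups, which overlapped. This peak too was listed only through the RGFP966 + KLA set.

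Mylip, also known as Idol, is the ubiquitin ligase that marks the LDL receptor for degradation and is itself an LXR target. Its promoter peak at -163 bp (chr13:45389395-45389763) held 17 and 15 tags in Veh, 21 and 14 in KLA and 7 and 11 in RGFP966 + KLA. The RGFP966 + KLA libraries were the lowest, with levels of 12.8 ± 0.564 in Veh, 11.6 ± 0.541 in KLA and 4.56 ± 1.56 in RGFP966 + KLA. The peak was listed through the Veh and KLA sets and not through the RGFP966 + KLA set.

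Scd2 is a stearoyl-CoA desaturase, which makes monounsaturated fatty acids. Its peak at -9415 bp (chr19:44284115-44284407, intergenic) held 9 and 8 tags in Veh, 18 and 10 in KLA and 22 and 20 in RGFP966 + KLA. The levels of 6.79 ± 0.264, 9.10 ± 0.748 and 10.6 ± 0.399 did not overlap between groups. The peak was listed through the KLA and RGFP966 + KLA sets and not through the Veh set. Its listing and its low Veh level are therefore not independent. Srebf2 encodes SREBP-2, the main activator of cholesterol synthesis genes. Its promoter peak at -202 bp (chr15:82146849-82147286) held 25 and 16 tags in Veh, 33 and 19 in KLA and 30 and 32 in RGFP966 + KLA. At 16.3 ± 4.37, 17.0 ± 0.968 and 15.6 ± 1.18 the 3 groups overlapped.

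Per kilobase of peak, the Srebf2 promoter had 37.2 ± 9.97 tags per 100000 in Veh and the Mylip promoter 34.6 ± 1.53. They were followed by the Abca1 peaks together at 24.5 ± 0.838, the Scd2 peak at 23.2 ± 0.902 and the Abcg1 peak at 15.5 ± 4.83. Srebf2 and Mylip differed by less than the sum of their SDs, as did Abca1 and Scd2. In RGFP966 + KLA the order was Scd2 at 36.1 ± 1.36, Srebf2 at 35.7 ± 2.69, Abcg1 at 27.1 ± 0.802, Abca1 at 22.3 ± 1.16 and Mylip at 12.4 ± 4.23, where Scd2 and Srebf2 differed by less than the sum of their SDs. In KLA, Mylip at 31.5 ± 1.47 lay between Abca1 at 32.0 ± 8.14 and Scd2 at 31.0 ± 2.55. Srebf2 was above them at 38.7 ± 2.21 and Abcg1 below at 27.7 ± 2.24. Mylip thus stood next to the top of the 5 genes in Veh and at the bottom in RGFP966 + KLA. Its peak was not listed through the RGFP966 + KLA set, whereas the Abcg1 and Scd2 peaks were not listed through the Veh set. These listings favour that change of order, so it is a description.

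The first comparison asked how TLR4 signalling changes accessibility, KLA against Veh. None of the 8 member peaks was called by edgeR's quasi-likelihood test on raw tags, at an adjusted p under 0.05 and over 2-fold, whereas 5.03% of all 9698 peaks were. Of the 8, 2 had an unadjusted p under 0.05, as had 1888 of all 9698 peaks, and DESeq2 called 0 of the 8 and 0 of all peaks. Of the 2, one was the Abca1 +1068 bp peak, with a log2 fold change of 1.99 ± 0.75 (SE) and an adjusted p of 0.0561. Its pooled tags were 4.12 times those of Veh per tag in peaks, with an interval of 1.38 to 16.6. The other was the Abca1 +37860 bp peak, at 0.77 ± 0.36 and an adjusted p of 0.204. Without KLA replicate 1, which held the 39 tags, that value was 0.15. The Abcg1 peak, at 0.79 ± 0.58 (adjusted p = 0.489), and the Scd2 peak, at 0.43 ± 0.43 (adjusted p = 0.644), were higher in both KLA libraries than in both Veh libraries. Their intervals for the ratio, 0.716 to 4.68 and 0.717 to 2.64, each span 1. The Mylip value was -0.15 ± 0.35 and the Srebf2 value 0.06 ± 0.31. The median over the 8 peaks was 0.333, against 0.0187 over all peaks. Both KLA libraries were above both Veh libraries at 3 of the 8 peaks, against 25.3% of all peaks, and below them at 2, against 22.6%. The 3 peaks above were all absent from the Veh set, so the listing favours that count. Summed per gene, none of the 5 genes was called by edgeR or DESeq2 (1 at an unadjusted p under 0.05), against 3.64% of 6598 genes, and the Abca1 sum gave 0.44 ± 0.22 (adjusted p = 0.266).

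The second comparison set RGFP966 + KLA against KLA and so asked what HDAC3 inhibition changes in stimulated cells. Again none of the 8 member peaks was called by edgeR, against 0.340% of all peaks, and DESeq2 called 0. Of the 8, 2 had an unadjusted p under 0.05, as had 1343 of all 9698 peaks, both of the 2 lower with the inhibitor. At the Abca1 +37860 bp peak the log2 fold change was -1.32 ± 0.35 (adjusted p = 0.0590), with a pooled ratio of 0.398 and an interval of 0.240 to 0.645. Without KLA replicate 1 it was -0.70, with an adjusted p of 0.612. At the Mylip promoter it was -1.33 ± 0.41 (adjusted p = 0.110), with a pooled ratio of 0.394 and an interval of 0.210 to 0.714. The Mylip peak was listed through the Veh and KLA sets and not through the RGFP966 + KLA set. That listing favours its lower value here, in the count that follows and in the Mylip gene sum. Both inhibitor libraries were below both KLA libraries at 3 of the 8 peaks: Abca1 +37860 bp, Mylip and Abca1 +39362 bp (-0.44 ± 0.39). They were above them at 1, Scd2 (0.20, adjusted p = 0.846). Over all peaks the shares were 20.1% below and 25.7% above. The Abca1 +1068 bp peak differed by -0.18 (adjusted p = 0.891). The median over the 8 was -0.155, against 0.0302 over all peaks. By gene, 0 of 5 sums were called by edgeR or DESeq2 against 0.288% of all genes, and the 2 with an unadjusted p under 0.05 were Abca1 at -0.58 ± 0.20 (adjusted p = 0.157) and Mylip (adjusted p = 0.0994).

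The third comparison set RGFP966 + KLA against Veh. It shares the RGFP966 + KLA libraries with the second comparison and the Veh libraries with the first, so that their values are not separate evidence. The Mylip promoter peak was lower and was the 1 of 8 member peaks called by edgeR, against 9.88% of all peaks. Its log2 fold change was -1.48 ± 0.42 (adjusted p = 0.0117) and its pooled ratio 0.355, with an interval of 0.187 to 0.651. Both RGFP966 + KLA libraries were below both Veh libraries. The peak is in the table through the Veh and KLA sets, where it is high, and not through the set of the group where it is low, so the listing favours this difference and the call is not independent of it. The call ended without Veh replicate 1 (adjusted p = 0.0962), without Veh replicate 2 (0.0540) and without RGFP966 + KLA replicate 1 (0.133), and DESeq2 did not make it (0.495 with its own size factors). The Abca1 +1068 bp peak gave 1.81 ± 0.74 (adjusted p = 0.0576), a pooled ratio of 3.62 with an interval of 1.24 to 14.4. Its listing through the RGFP966 + KLA set alone favours a higher value in that group, so these figures are a description. The Abca1 +39362 bp peak gave -0.82 ± 0.38 (adjusted p = 0.160) and the Scd2 peak 0.63 ± 0.40 (adjusted p = 0.317), each without overlap between the groups. The Abcg1 peak gave 0.78 (adjusted p = 0.400). At 3 of the 8 peaks both RGFP966 + KLA libraries were above both Veh libraries, against 30.0% of all peaks, and at 3 they were below, against 24.7%. The 3 peaks above were again absent from the Veh set, which favours that count. The median was 0.131, against 0.0442 over all peaks. Of the gene sums, Mylip was the 1 of 5 called (adjusted p = 0.0106), against 7.81% of all genes. The Mylip sum is its promoter peak alone, so this repeats the call above.

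**Figure D2:**
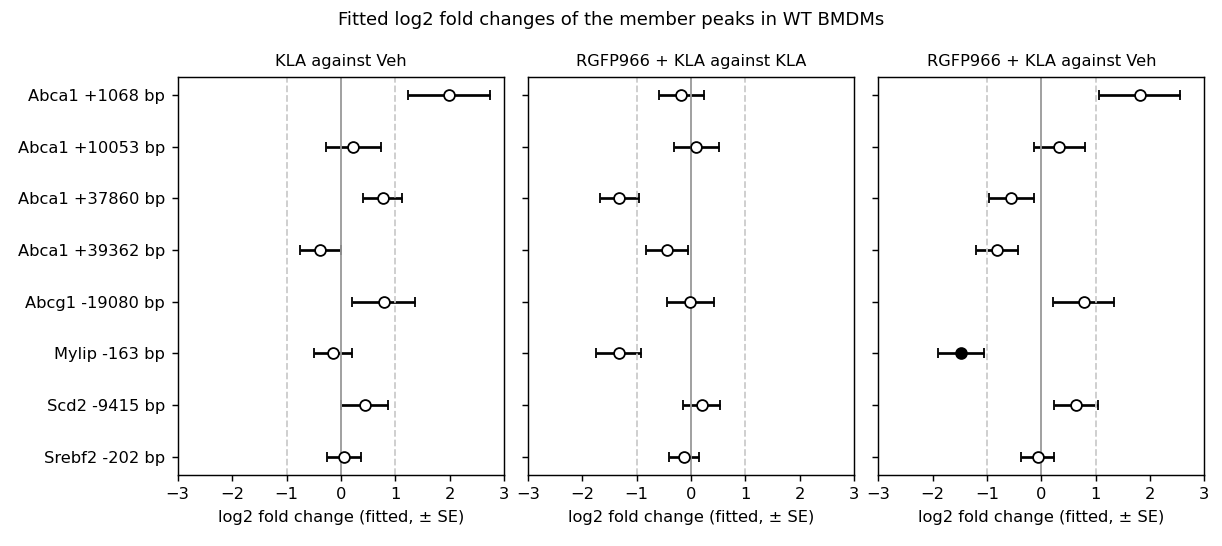
Fitted log2 fold changes (x axis, bars are ± 1 SE) of the 8 WT member peaks (y axis) in the 3 comparisons. Filled points were called, open points were not, and dashed lines mark 2-fold. The Mylip promoter in RGFP966 + KLA against Veh, at -1.48, is the filled point. Its peak was listed through the Veh and KLA sets and not the RGFP966 + KLA set, which favours its lower value. DESeq2 did not make this call. In the same panel the Abca1 peaks at +1068 bp and +37860 bp lie on opposite sides of 0. The +1068 bp peak was listed through the RGFP966 + KLA set alone, which favours its higher value.

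The 4 Abca1 peaks had values of both signs. Against Veh, the RGFP966 + KLA value was 1.81 in the first intron at +1068 bp and 0.33 at +10053 bp, and -0.55 and -0.82 at the intron 5 peaks. The sum over the 4 peaks does not show this, with levels of 28.8 ± 0.986 in Veh, 37.6 ± 9.57 in KLA and 26.2 ± 1.36 in RGFP966 + KLA. Both intron 1 peaks were listed through the RGFP966 + KLA set alone. The intron 5 peaks were listed through the Veh, KLA and RGFP966 + KLA sets. That listing favours higher values at the intron 1 peaks, so the split in sign is not independent of it. None of the 4 peaks was called. The ratio intervals at +10053 bp (0.64 to 2.59) and +37860 bp (0.38 to 1.22) each span 1. The difference between the peaks was not tested.

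The other genes of the pathway were taken from 4 lists: the LXR axis (targets, partners and corepressors, 28 genes), cholesterol synthesis and uptake (25), fatty acid synthesis and desaturation (18) and SREBP processing (11), none of which holds a member. WT peaks were assigned to 9, 20, 7 and 5 of these genes, 14, 25, 8 and 8 peaks in all. In KLA against Veh, 1 of the 14 LXR axis peaks was called higher and 1 of the 8 SREBP processing peaks lower, and none of the 25 cholesterol or 8 fatty acid peaks was called, against 320 higher and 168 lower of all 9698 peaks. In RGFP966 + KLA against KLA none was called in any list. In RGFP966 + KLA against Veh, 3 of 14 LXR axis peaks were called higher, 1 of 25 cholesterol peaks higher and 1 lower, 1 of 8 SREBP processing peaks lower and none of the 8 fatty acid peaks, against 668 higher and 290 lower of all 9698. Medians of the 14 LXR axis peaks were -0.18, 0.29 and -0.14 in the order of the 3 comparisons above, against 0.0187, 0.0302 and 0.0442 over all peaks.

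The 3 LXR axis peaks were at Tgm2, Arl4c and Smpdl3a. All 3 were listed only through the RGFP966 + KLA set, the group in which they were then higher than in Veh, so their values below are a description that the listing favours. Tgm2 encodes transglutaminase 2, an enzyme that crosslinks proteins. Its intron 1 peak at +971 bp held 3 and 1 tags in Veh, 14 and 8 in KLA and 17 and 16 in RGFP966 + KLA. It was higher than Veh by 2.12 ± 0.76 in KLA (adjusted p = 0.0366) and by 2.32 ± 0.74 in RGFP966 + KLA (adjusted p = 0.00710) on the log2 scale. Arl4c encodes a small GTPase of the ARF-like family, and its peak at +47339 bp held 2 and 3, 8 and 3, and 15 and 16 tags in the same order. It was higher in RGFP966 + KLA than in Veh by 1.93 ± 0.65 (adjusted p = 0.0182). Smpdl3a encodes a phosphodiesterase related to acid sphingomyelinase, and its intron 1 peak at +5151 bp held 1 and 1, 7 and 4, and 8 and 13 tags. With 2 Veh tags in all, the pooled ratio of RGFP966 + KLA to Veh was 6.62 with an interval of 1.62 to 58.2 (adjusted p = 0.0184). Of WT peaks with a TSS distance, 30.1% were listed through that set alone, the Abca1 +1068 bp and Abcg1 peaks among them.

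Of the sterol genes, Insig1 encodes the protein that retains the SREBP escort in the endoplasmic reticulum. Its intergenic peak at -34066 bp held 23 and 26 tags in Veh, 9 and 9 in KLA and 16 and 19 in RGFP966 + KLA. It was lower than in Veh both in KLA, with a log2 fold change of -1.71 ± 0.39 (adjusted p = 0.00277), and in RGFP966 + KLA, at -1.14 ± 0.32 (adjusted p = 0.0125). The Insig1 peak was listed through the Veh and RGFP966 + KLA sets and not through the KLA set, where it was lowest. That listing favours the difference between KLA and Veh, so the call in KLA is not independent of it. Soat1 encodes an enzyme that esterifies cholesterol for storage, and its intron 2 peak at +14488 bp held 20 and 16, 14 and 8, and 14 and 11 tags in the same order, a difference of -1.18 ± 0.37 between RGFP966 + KLA and Veh (adjusted p = 0.0262). At gene sums the lists held 2 calls over the 3 comparisons, Arl4c (1.93 ± 0.66, adjusted p = 0.0190) and Smpdl3a (2.61 ± 0.95, adjusted p = 0.0195), both higher in RGFP966 + KLA than in Veh. Each sum held the same tags as the single peak given above, listed through the RGFP966 + KLA set alone, and is no separate evidence.

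The NCoR1 flox/flox libraries were counted on another set of peaks and carry another library date in the labels, so that no test was made between them and the WT libraries. All 8 WT member peaks overlapped a member peak of the NCoR1 flox/flox table, which makes 8 of its 22. The other 14 had no counterpart in the WT table. Of the 22 peaks, 12 lay within 2 kb of a TSS, against 47.8% of all peaks with a TSS distance. The set was listed from NCoR1 flox/flox and NCoR-deficient libraries with and without KLA. At least in part, 16 of the 22 peaks came from the resting flox/flox set, against 62.2% of all peaks with a TSS distance. The member peaks outside that set were all among the 14 without a WT counterpart.

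**Figure D3:**
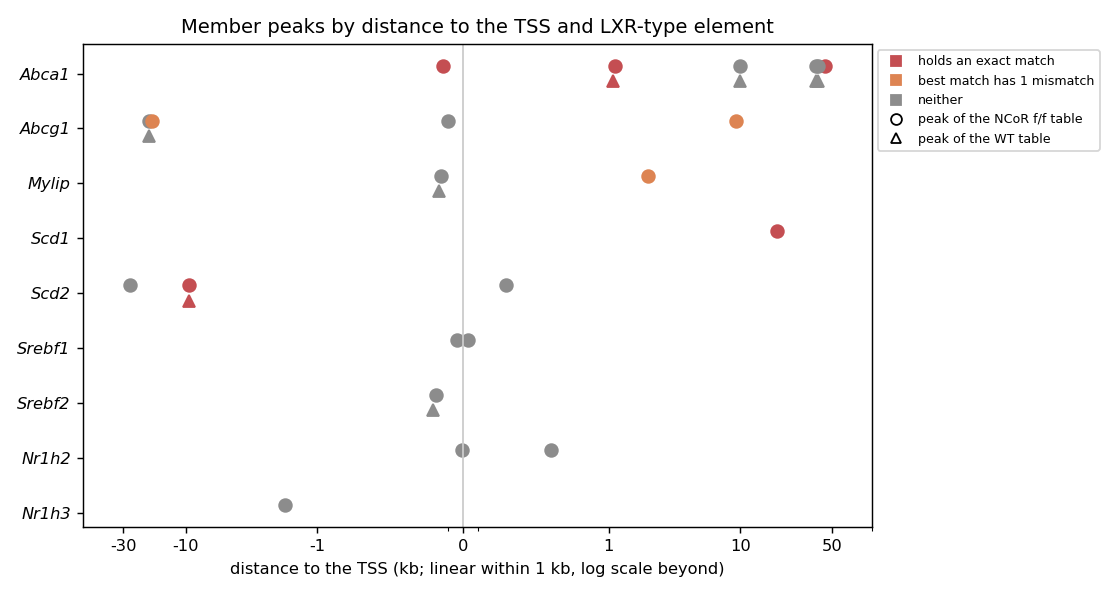
Positions of the member peaks of the NCoR f/f table (circles) and the WT table (triangles) as distance to the TSS in kb (x axis, linear near 0 and on a log scale beyond), by gene (y axis). Red marks an exact LXR element, orange a best match with 1 mismatch and grey neither. The WT table has peaks at 5 of the 9 genes, each beside a peak of the NCoR1 flox/flox table.

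Abca1 led the summed levels with 23.5 ± 0.921 tags per 100000 over 6 peaks. Its peaks held 17 and 26 tags at the promoter (-140 bp), 12 and 14 at +1107 bp, 8 and 16 at +9997 bp, 15 and 30 at +37875 bp, 21 and 23 at +39301 bp and 12 and 14 at +43861 bp. The promoter and the +43861 bp peak, both with an exact LXR element, had no counterpart in the WT table. Abcg1 reached 9.85 ± 2.16 over 4 peaks. Its upstream peaks held 14 and 16 tags at -19174 bp and 12 and 13 at -17902 bp. Its promoter peak at -99 bp held 3 and 13 tags and its intron 2 peak at +9314 bp 2 and 16, both low in replicate 1. These were listed only through the NCoR-deficient sets.

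Mylip reached 8.95 ± 1.01 over its promoter peak, with 25 and 30 tags, and the +1990 bp peak with its 1-mismatch element, with 11 and 12. Among the desaturases, Scd2 reached 12.4 ± 2.57 over 3 peaks, with 25 and 34 tags at -9418 bp, 9 and 12 at +295 bp and 19 and 8 at -26587 bp. The Scd2 peaks at +295 bp and -26587 bp were not listed through the resting flox/flox set. Scd1, the isoform best known from liver and fat, had the one peak at +19071 bp, beyond its 3′ end, with 27 and 16 tags and a level of 5.19 ± 2.91. The SD was the largest of the 22 peaks at the Scd1 peak, and at the -26587 bp peak of Scd2 it was 2.50 around a level of 3.34. Both were higher in replicate 1.

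Of the regulators, Srebf2 reached 9.06 ± 2.17 in its single promoter peak, with 28 and 54 tags. Srebf1 reached 5.87 ± 0.812 over peaks at a pair of annotated start sites, 10 and 12 tags at chr11:60210388-60210631 and 14 and 15 at chr11:60220389-60220802. The exact LXR element of the Srebf1 RefSeq promoter lies upstream of the edge of the former. Nr1h2, which encodes LXRβ, reached 4.79 ± 1.83 with 6 and 19 tags at -8 bp and 7 and 12 at +603 bp, both listed only through the KLA set. Nr1h3, which encodes LXRα, reached 3.82 ± 0.680 in its one peak at -1763 bp, with 16 and 17 tags.

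Per kilobase of peak, which allows genes to be set side by side, the order was Srebf2 at 20.4 ± 4.91, Mylip at 16.7 ± 1.88, Abca1 at 12.4 ± 0.489, Scd2 at 11.99 ± 2.49, Scd1 at 11.8 ± 6.58, Nr1h3 at 10.4 ± 1.85, Srebf1 at 8.92 ± 1.23, Nr1h2 at 7.48 ± 2.86 and Abcg1 at 6.88 ± 1.51. The Mylip value covers its promoter and its +1990 bp peak, whereas the WT table has the promoter peak alone. Neighbours in this order differed by less than the sum of their SDs, except that Mylip stood above Abca1 by more. In the WT table no peak was assigned to Nr1h3, Nr1h2, Srebf1 or Scd1. Of peaks within 100 kb of these TSSs, 2 and 4 near Nr1h3 and Nr1h2 were assigned to other genes, and none lay near Srebf1 or Scd1. The WT table therefore gives no value for these 4 genes.

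**Figure D4:**
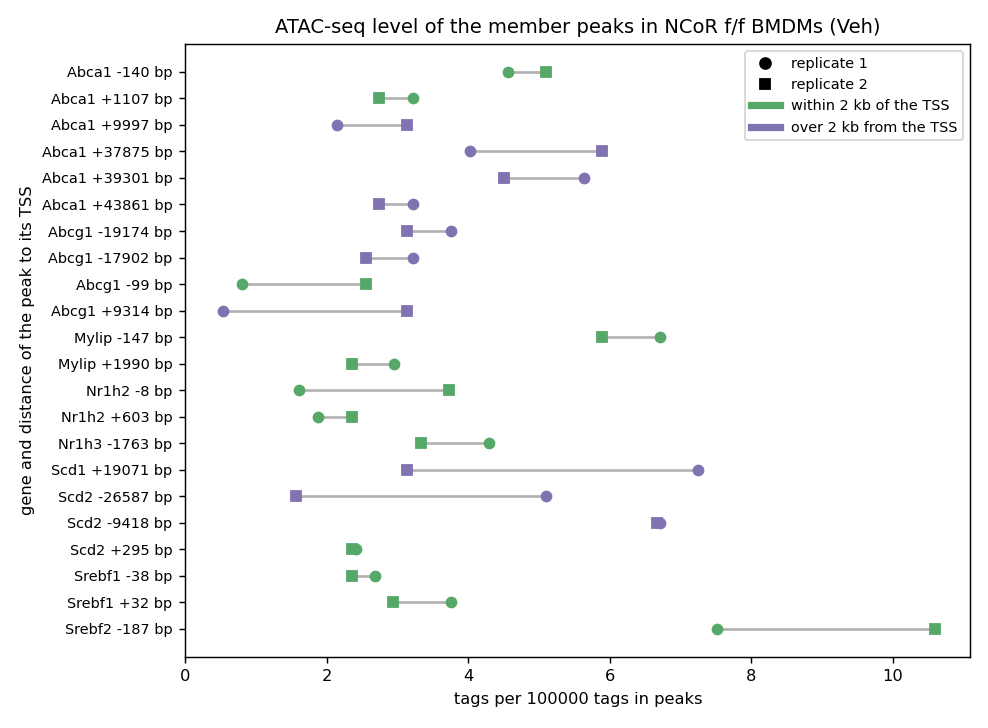
Levels of the 22 member peaks (y axis) in the NCoR f/f libraries, as tags per 100000 tags in peaks (x axis). Circles are replicate 1, squares replicate 2, a grey line joins the pair, and green and purple mark peaks within and over 2 kb from the TSS. The Srebf2 promoter is the highest, with a mean of 9.06, and the Scd1 peak has the widest gap between replicates, with 27 and 16 tags.

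The peaks of the desaturase cluster resembled each other in sequence. The element peaks of Scd1 and Scd2, and one at +44961 bp that the table assigned to the desaturase gene Scd3 (chr19:44248296-44248310), all carried the exact element. Aligned on it without gaps, from 10 bases before to 90 after, Scd1 and Scd2 shared 101 of 115 bases (87.8%), Scd1 and Scd3 105 (91.3%) and Scd2 and Scd3 96 (83.5%). The longest run shared by whole peaks was 36, 44 and 22 bases in the same order. Tags from such copies could be split between them where reads map to both, so the values of the Scd1 and Scd2 peaks carry that uncertainty. The Scd1 stretch is printed for comparison with the Scd2 stretch above, together with the Abca1 intron 5 peak that has the same 15-base element as Scd2, both on the strand of their gene and with the same capitals.

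Scd1 +19071 bp, chr19:44388489-44388788, minus strand: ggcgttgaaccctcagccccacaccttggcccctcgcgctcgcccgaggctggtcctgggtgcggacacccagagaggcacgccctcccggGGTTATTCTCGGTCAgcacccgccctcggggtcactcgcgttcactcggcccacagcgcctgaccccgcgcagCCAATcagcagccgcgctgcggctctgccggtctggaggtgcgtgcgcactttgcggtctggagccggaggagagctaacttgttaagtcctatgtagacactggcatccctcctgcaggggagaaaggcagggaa
Abca1 +43861 bp, chr4:53115918-53116150, minus strand: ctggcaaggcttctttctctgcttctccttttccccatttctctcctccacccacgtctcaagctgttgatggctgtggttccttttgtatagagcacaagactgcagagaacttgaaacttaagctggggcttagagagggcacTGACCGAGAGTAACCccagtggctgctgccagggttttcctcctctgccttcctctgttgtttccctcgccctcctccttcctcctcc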

How the data were processed

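ATAC-seq was measured in 8 libraries of mouse BMDMs, 2 per group, as 2 tables. Per the labels and methods, the authors aligned the reads to mm10 with Bowtie2, merged the IDR (irreproducible discovery rate) peaks of each condition with HOMER and deposited raw tag counts per peak, at most 3 tags per base position, with the nearest gene and its distance. Versions are not given in the sources used here. The column headers also give all tags per library, from which the tags in peaks made up 1.40% to 2.73%. No peak of one table was tested against the other table. Groups followed the sample titles and labels.

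Counts were divided by the total tags in peaks. Peaks that reached 4 tags in any library entered edgeR 4.0.16 (R 4.3.3; glmQLFit and glmQLFTest, two-sided, no covariate) over all 6 WT libraries, with Benjamini-Hochberg adjustment over all 9698 peaks or, after summing raw tags within 100 kb per gene, all 6598 genes. A call needed an adjusted p under 0.05 and over 2-fold. The edgeR step was tested on simulated counts. Their dispersion was set well above the value fitted to the WT peaks, 9.77e-05, so the simulation did not cover the p-values at the fitted dispersion. Pooled ratios have exact binomial 95% intervals. DNA was read from GRCm38 with samtools 1.23.1, motifs were searched on both strands, and introns and start sites are those of the deposited annotation. Alternatives were DESeq2 1.42.0, other scalings (TMM factors, all tags, loess, 20 GC bins), filters, fold limits, samples and windows, a replicate block and leaving out each library; 171 WT peaks without a GC value took the median. All members are named; of the lists, genes with a call are named, except items that are not reported here. The members, lists and tests were chosen with earlier results of these data known.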

Additional observations from a re-analysis of the deposited data

How the results depend on the processing

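Of 402 refitted log2 fold changes of the 24 results for the WT member peaks, 371 kept direction and side of the threshold, 6 lost a call, 9 gained one and 16 changed sign, the last all small and uncalled.

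In KLA against Veh, 1 member peak was called with offsets in 20 GC bins (Abca1 +1068 bp, adjusted p = 0.0492), and 0 under the other alternatives and without any one library. In RGFP966 + KLA against KLA, 1 was called (Abca1 +37860 bp) with TMM factors, with loess offsets, with at least 16 tags, with the replicate block and with the 4 libraries alone. Leaving out 1 library gave 0 to 1, with 1 without Veh replicate 1, Veh replicate 2 or KLA replicate 2. In RGFP966 + KLA against Veh, 0 peaks were called with all tags as library size (Mylip, adjusted p = 0.0670) and with DESeq2 under either scaling, and 0 to 1 on leaving out 1 library. The Mylip gene sum was likewise lost, giving 0 genes, with all tags, with DESeq2 under either scaling and with distal peaks alone, to which its promoter peak does not belong, and 0 to 1 genes were called on leaving out 1 library.

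Signs changed at 3 weak peaks. With all tags as library size the Srebf2 value became -0.0420 in KLA against Veh, 0.0488 in RGFP966 + KLA against KLA and 0.00686 in RGFP966 + KLA against Veh, and Abcg1 became 0.152 in RGFP966 + KLA against KLA. With loess offsets Srebf2 became 0.0431 in RGFP966 + KLA against Veh. With GC offsets Abcg1 became 0.0177 in RGFP966 + KLA against KLA and Srebf2 0.0158 in RGFP966 + KLA against Veh. On leaving out 1 library, the Abca1 +10053 bp value ranged from -0.23 to 0.979 in KLA against Veh, from -0.0905 to 0.260 in RGFP966 + KLA against KLA and from -0.13 to 1.08 in RGFP966 + KLA against Veh, Srebf2 ranged from -0.18 to 0.37 in KLA against Veh and from -0.31 to 0.24 in RGFP966 + KLA against Veh, and Abcg1 from -0.111 to 0.0518 in RGFP966 + KLA against KLA. The cause was not tested.

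Over all 9698 peaks edgeR called 488, 33 and 958 in the 3 comparisons, whereas DESeq2 with its own size factors called 0 in each (570, 144 and 742 at an unadjusted p under 0.05) and with total tags 0, 0 and 1. Loess offsets turned the split of higher and lower calls from 320 and 168 to 225 and 264, from 23 and 10 to 20 and 71, and from 668 and 290 to 237 and 373. All tags as library size gave 189 and 116, 47 and 6, and 589 and 122, and moved the median log2 value to -0.05, 0.21 and 0.14. Leaving out 1 library, with the lone library of that group taken to vary like the other groups, lowered the calls most without Veh replicate 1 in KLA against Veh (100 higher and 55 lower) and in RGFP966 + KLA against Veh (229 and 90), and without RGFP966 + KLA replicate 1 in RGFP966 + KLA against KLA (0 and 0). The replicate numbers are shared only as names: deviations of same-numbered libraries correlated at 0.0333 to 0.0707 over 3402 peaks, and the replicate block gave 350 higher and 208 lower, 38 and 18, and 722 and 314 calls. Depth was 10 to 17 tags in the median WT peak, with 2 libraries per group.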

Other observations

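Outside the member genes, 3 WT peaks held the exact LXR element. The Scd3 peak at +44999 bp held 14 and 6 tags in Veh, 25 and 12 in KLA and 14 and 12 in RGFP966 + KLA. A peak at -22 bp of Acsl3, which encodes a long-chain acyl-CoA synthetase, held 25 and 17, 43 and 21, and 20 and 23 tags in the same order. A peak at -20298 bp of Arhgef3 held 4 and 1, 7 and 7, and 13 and 18 tags, with both RGFP966 + KLA libraries above the others per tag in peaks. That peak was listed only through the RGFP966 + KLA set, which favours this order. In the NCoR1 flox/flox table the exact element also lay in the promoter peak of Fasn (-77 bp), the fatty acid synthase gene, with the same 15 bases as the Abca1 promoter. These peaks were chosen after their sequences and values were seen, and no test was made on them as a group.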
